A study of Sorghum bicolor with 12 samples.

Results

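Phytoene synthase (Sb10g031020.1), geranylgeranyl reductase (Sb04g028050.1) and terpene synthase 6 (Sb07g005130.1) are 3 of the 27989 transcripts deposited for sorghum leaves. They were taken by their identifiers after their RPKM (reads scaled to transcript length and library total) in the 4 groups had been seen. Their values are therefore given as a description, without a test.

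The 3 enzymes belong to isoprenoid synthesis, and phytoene synthase and geranylgeranyl reductase share a precursor. Isoprenoid units made in plastids are joined by prenyl diphosphate synthases to geranylgeranyl diphosphate. Phytoene synthase condenses a pair of these molecules to phytoene, the first committed step towards carotenoids, which protect the photosynthetic apparatus. Geranylgeranyl reductase saturates the same chain to the phytyl tail that anchors chlorophyll and tocopherols. Terpene synthases turn prenyl diphosphates into mono-, sesqui- and diterpenes, many of them volatile, with roles in defence.

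Leaves of 2 genotypes of the durra race, the drought tolerant IS22330 and the drought sensitive IS20351, were sampled from plants grown singly in pots. Drought-stressed (DS) plants had been held at a fraction of transpirable soil water (FTSW) of 0.2, whereas well-watered (WW) plants were kept near 0.7, and both were harvested at day 42 after emergence. The 4 groups, IS22330 DS, IS22330 WW, IS20351 DS and IS20351 WW, had 3 libraries each, 12 in all. The tissue is labelled leaf and the extraction protocol names the leaf meristem; 28 light reaction and Calvin cycle transcripts had reads adding to at least 2272 RPKM in every library, and no marker of dividing cells was examined.

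The authors deposited means over 3 libraries, from which the reads of each library were solved, and the letters a, b and c name the libraries of each group from the smallest total to the largest. Values of a group are given in that order, and equal letters do not join a DS to a WW plant. Libraries held 26398759 to 28680141 reads on transcripts, so that 3 reads, taken as the least that can be told from 0, are worth 0.0535 to 0.0582 RPKM of phytoene synthase and 0.0637 to 0.0693 RPKM of terpene synthase 6. Library c of IS22330 DS stood apart. Its Pearson r over the transcripts tested was 0.836 and 0.854 with the other DS libraries of its genotype and 0.909 to 0.924 with the WW libraries of IS22330. It lay at least 10-fold above both other libraries of its group for 191 transcripts and at least 10-fold below for 395, which are 1.00% and 2.08% of the 19024 tested. In library a of IS22330 WW, terpene synthase 6 and several listed isoprenoid transcripts also departed from their group. This library was singled out by those values, since over all transcripts it departed less than library b of its group, with 33 transcripts at least 10-fold above and 88 below for library a, against 39 and 159 for library b. Library b of IS22330 WW was also near the other treatment. Its r was 0.913 and 0.925 with DS libraries a and b, against 0.879 and 0.930 with WW libraries a and c. Ratios and counts of IS22330 that DS library c or WW library a turned or moved most are given with and without that library. In RNA of leaf tissue, fewer cells of a type and less RNA per cell cannot be told apart.

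The reductase was by far the most abundant member per length, and phytoene synthase and terpene synthase 6 were near the lower end of the transcripts tested. By mean RPKM the reductase ranked 2136 in IS22330 DS, 567 in IS22330 WW, 4619 in IS20351 DS and 332 in IS20351 WW among the 19024 transcripts. Phytoene synthase Sb10g031020.1 stood between the percentiles 1.30 and 21.8 of these transcripts. Terpene synthase 6 reached the percentile 56.3 in IS22330 WW and lay between 1.94 and 21.4 in the other groups.

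**Figure D1:**
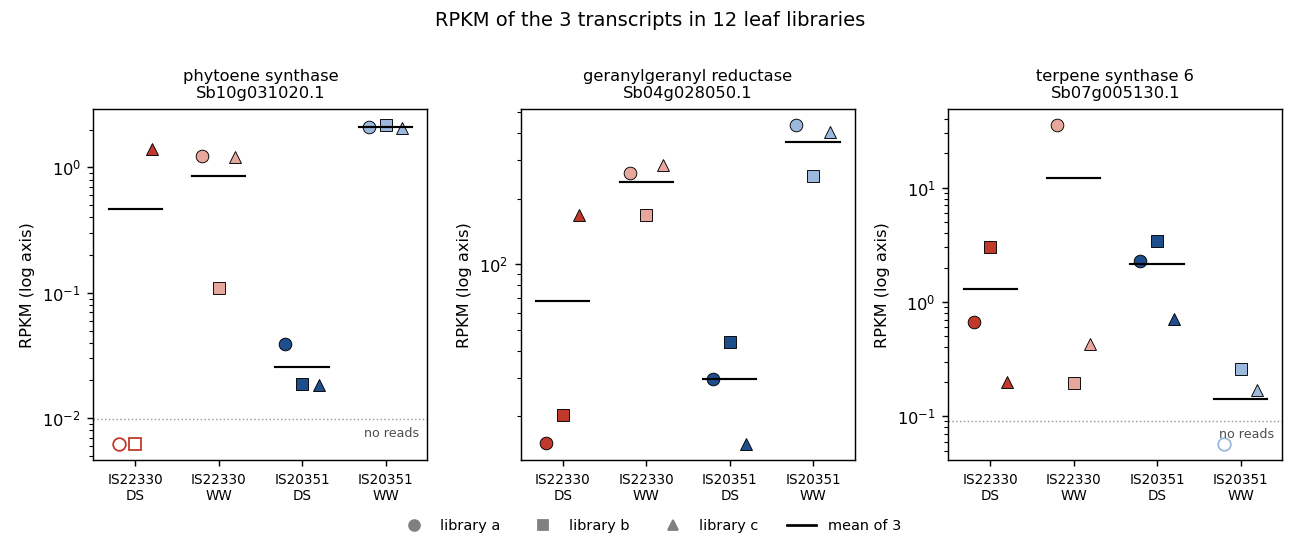
RPKM (log axes) of the 3 transcripts in each of 12 libraries, with DS left of WW in each genotype; circles, squares and triangles are libraries a, b and c, bars are means of 3, and open symbols are libraries without reads, drawn at an arbitrary height. Phytoene synthase and the reductase were low in every DS library except library c of IS22330, and terpene synthase 6 was at 35.5 RPKM in library a of IS22330 WW and at most 3.43 RPKM elsewhere.

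Phytoene synthase Sb10g031020.1 was at the limit of detection in the droughted leaves of IS20351. It had 0.0388, 0.0188 and 0.0185 RPKM in DS libraries, against 2.10, 2.18 and 2.05 RPKM in WW libraries. These are 2, 1 and 1 reads in DS plants and 113, 121 and 115 reads in WW plants, so the groups were widely separated and the WW libraries differed little from each other. For 15.2% of all transcripts tested the DS libraries lay below the WW libraries in this genotype, and for 21.5% above, and nothing is read from the place of the members beside these shares, since they were chosen on these values. The log2 ratio of DS over WW was -6.36 (SE 1.88) in the edgeR fit. Summed over libraries, 4 reads in DS against 349 in WW plants correspond to a level 83.7-fold lower, with an exact 95% interval of 32.4 to 309 that covers counting error only. The DS value rests on 4 reads and each DS library was under the 3-read limit, so the size of the ratio is imprecise and its fitted value moves with the prior count.

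In IS22330 the same transcript split the DS group. No read was found in DS libraries a and b, and 75 reads, 1.40 RPKM, were found in library c. WW plants had 1.23, 0.109 and 1.21 RPKM, from 66, 6 and 67 reads. Thus DS libraries a and b lay below all WW libraries, DS library c above all of them, and WW library b between these levels. The group means were 0.465 ± 0.806 RPKM in DS and 0.852 ± 0.644 RPKM in WW plants (SD, n = 3), and the log2 ratio was -0.64 (SE 1.41). Without DS library c, the DS libraries that remain have no read, and the fitted ratio would depend on the prior count alone. With 3 reads as the limit, their level was under 0.0560 RPKM.

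A second transcript of the gene, Sb10g031020.2, carried most of its reads. The files list lengths of 1954 bases for Sb10g031020.1 and 1972 bases for Sb10g031020.2, and how the authors divided reads between transcripts of 1 gene is not given in the sources used here. Sb10g031020.2 had 0.629, 0.462 and 7.56 RPKM in IS22330 DS libraries, against 5.95, 3.28 and 4.46 RPKM in WW libraries. In IS20351 it had 1.08, 1.42 and 2.28 RPKM in DS libraries, against 11.3, 4.18 and 8.93 RPKM in WW libraries. The pattern was that of Sb10g031020.1, with DS below WW in all IS20351 libraries and DS library c of IS22330 above the WW libraries, but the differences were smaller. The edgeR log2 ratio in IS22330 was -0.46 (SE 0.92, adjusted p = 0.869), and that in IS20351 was -2.43 (SE 0.96, adjusted p = 0.142).

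Sb10g031020.1 also made up a smaller share of the reads of both transcripts in DS plants of IS20351. There its share was 3.45, 1.30 and 0.800% in DS libraries, against 15.6, 34.1 and 18.6% in WW libraries. The exact (Clopper-Pearson) 95% intervals reached at most 11.9% in DS and began at no less than 13.0% in WW plants. In IS22330 the share was 0 of 34 reads, 0 of 25 reads and 15.5% in DS libraries, against 17.1, 3.17 and 21.2% in WW libraries. The counts of 0 allow shares of up to 10.3% and 13.7%, so that the shares in IS22330 DS libraries a and b cannot be told from that in WW library b at this depth. These intervals cover counting error only, since reads without molecular identifiers are not independent molecules.

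Summed over both transcripts, phytoene synthase was at 3.35 ± 4.86 RPKM in DS and 5.42 ± 1.91 RPKM in WW plants of IS22330, and at 1.62 ± 0.610 RPKM in DS and 10.2 ± 3.55 RPKM in WW plants of IS20351 (SD, n = 3). Without DS library c the mean of IS22330 DS was 0.545 RPKM. The summed level of IS20351 was lower in all DS libraries than in the WW libraries, whereas those of IS22330 overlapped through DS library c. With reads summed over the transcripts of the gene, the drought log2 ratio in IS20351 was -2.72 (SE 1.00), against -6.36 for Sb10g031020.1 alone.

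Geranylgeranyl reductase, the phytyl chain enzyme, had 29.8, 44.2 and 14.9 RPKM in DS and 437, 254 and 405 RPKM in WW libraries of IS20351. The DS libraries were all below the WW libraries, and the lowest WW library was 5.76-fold above the highest DS library. The mean was 29.6 ± 14.6 RPKM in DS and 366 ± 97.7 RPKM in WW plants (SD, n = 3), a log2 ratio of -3.77 (SE 0.89). The 3459 reads in DS and 44562 in WW plants leave little counting error, with a level 12.4-fold lower (11.9 to 12.8), so the spread between libraries sets the precision.

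In IS22330 the reductase had 15.2, 20.4 and 169 RPKM in DS, against 262, 168 and 285 RPKM in WW libraries. DS libraries a and b were in the range of the IS20351 DS libraries, and DS library c matched the lowest WW library of its genotype. The log2 ratio was -1.62 (SE 0.82) with all libraries, -3.82 (SE 0.45) without DS library c and -1.53 (SE 0.92) without WW library a. Without DS library c of IS22330 the ratio in IS20351 was the same, -3.77, but its SE was 0.38, since the spread is shared by all groups of the fit. The difference of the drought log2 ratios, IS22330 minus IS20351, was 2.15 (SE 1.14) with all libraries and -0.05 (SE 0.51) without DS library c. The library was left out after its values were seen.

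Terpene synthase 6 (Sb07g005130.1) ran the other way in IS20351. It had 2.29, 3.43 and 0.706 RPKM in DS libraries, against 0, 0.258 and 0.170 RPKM in WW libraries. The 99, 153 and 32 reads in DS plants were all above the 0, 12 and 8 reads in WW plants. The log2 ratio was 3.72 (SE 1.80). The exact 95% interval of the ratio of the summed levels, 14.8-fold, was 9.40 to 24.6 and covers counting error only, not the spread between libraries.

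In IS22330 the mean of terpene synthase 6 was set by a single library. WW libraries had 35.5, 0.194 and 0.431 RPKM, from 1593, 9 and 20 reads, and DS libraries had 0.667, 3.04 and 0.199 RPKM, from 30, 137 and 9 reads. WW library a was 82.4-fold above the next WW library. The log2 ratio of DS over WW was -3.29 (SE 1.65) with all libraries, -2.81 (SE 1.85) without DS library c and 1.99 (SE 1.24) without WW library a, so its sign turned in the last case. Without that library the ranges still overlapped, since DS library c, at 0.199 RPKM, was below WW library c. The difference of the drought log2 ratios, IS22330 minus IS20351, was -7.00 (SE 2.44) with all libraries and -1.75 (SE 1.58) without WW library a.

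**Figure D2:**
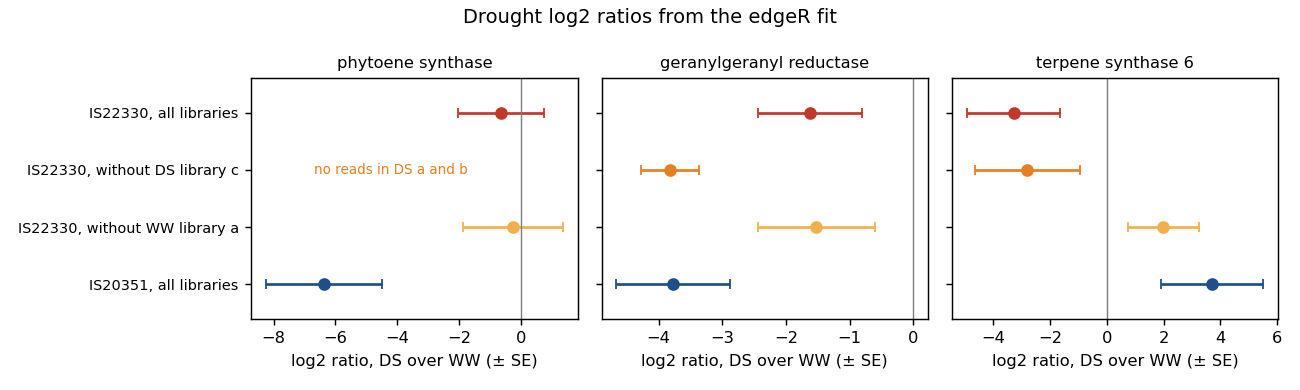
Log2 ratios of DS over WW for the 3 transcripts, with SE bars from the edgeR fit: IS22330 with all libraries, without DS library c and without WW library a, and IS20351 below. The reductase of IS22330 was at -1.62 with all libraries and -3.82 without DS library c, and terpene synthase 6 was at -3.29 with all libraries and 1.99 without WW library a; for phytoene synthase no ratio is drawn where DS had no reads.

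Set in order of the group means, phytoene synthase Sb10g031020.1 was highest in IS20351 WW, followed by IS22330 WW, IS22330 DS and IS20351 DS. Only the first step separated all libraries, as those of IS22330 WW, up to 1.23 RPKM, were below those of IS20351 WW, from 2.05 RPKM, as for 9.66% of all transcripts tested. The reductase had the same order, and every neighbouring pair of groups overlapped. For terpene synthase 6 the order was IS22330 WW, IS20351 DS, IS22330 DS and IS20351 WW, again with overlap between all neighbours. The first place of IS22330 WW came from library a alone, without which its mean was 0.312 RPKM and the order was IS20351 DS, IS22330 DS, IS22330 WW and IS20351 WW. Likewise IS22330 DS stood above IS20351 DS for phytoene synthase and the reductase only with its library c. Without that library the reductase was at 17.8 RPKM in IS22330 DS, against 29.6 RPKM in IS20351 DS, and phytoene synthase Sb10g031020.1 was under the 3-read limit in each library of both groups.

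Between genotypes, the log2 ratio of IS22330 over IS20351 in WW plants was -1.39 (SE 1.40) for phytoene synthase, -0.69 (SE 0.80) for the reductase and 6.29 (SE 1.96) for terpene synthase 6. The last was 1.03 (SE 1.22) without WW library a of IS22330. In DS plants the ratios were 4.33 (SE 1.82), 1.46 (SE 0.81) and -0.72 (SE 1.54) in the same order of genes. The positive ratios of phytoene synthase and the reductase rested on DS library c of IS22330. Without it the reductase was at -0.74 (SE 0.39), and no ratio is given for phytoene synthase, which had no read in IS22330 and 2, 1 and 1 reads in IS20351. The 4 comparisons share groups, so these ratios are not independent of each other.

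The 14 other isoprenoid transcripts that the study lists under secondary metabolism were read beside the members. This list was drawn up by the study from the same libraries, and its direction is no independent evidence. Of the 14, 10 passed the filter of 1 RPKM or more in 3 or more libraries; both 1-deoxy-D-xylulose-5-phosphate synthases, cycloartenol synthase and a second transcript of terpene synthase 14 did not. In IS20351, all 3 DS libraries were below all 3 WW libraries for 8 of the 10, compared with 15.2% of all transcripts tested, and above them for 0 of the 10, compared with 21.5%. Their median log2 ratio was -2.35 and that of all transcripts tested 0.03. None of the 10 passed an edgeR adjusted p under 0.05 (background 1.3% higher and 2.42% lower). At an unadjusted p under 0.05, 6 were lower and 0 higher, compared with 14.2% and 12.6% of all transcripts. With limma at a pseudocount of 0.1, 2 were lower and 0 higher at an adjusted p under 0.05, compared with 2.88% and 1.86% of all transcripts, and with DESeq2 5 were lower and 0 higher, compared with 9.02% and 7.28%. Without DS library c of IS22330, whose spread enters the same fit, 4 of the 10 passed in IS20351, beside 9.25% of all transcripts lower and 6.17% higher.

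In IS22330 no listed transcript separated DS from WW libraries, compared with 4.93% of all transcripts above and 9.13% below. Without DS library c, DS was below WW in all libraries that remained for 4 of the 10, compared with 19.8% of all transcripts. The median log2 ratio was -1.27 with all libraries, -2.73 without DS library c and -0.21 without WW library a, and that of all transcripts was 0.01, -0.02 and 0.06 in these fits. With all libraries 9 of the 10 had a negative and 0 a positive ratio, the remaining one being without reads in either group, while 9267 of the 19024 transcripts tested had a negative ratio. None passed an adjusted p under 0.05 by edgeR or limma (background 0.0%) or by DESeq2 (background 0.515% higher and 0.52% lower). By edgeR, 2 were lower and 0 higher at an unadjusted p under 0.05, compared with 5.56% and 5.46% of all transcripts. At an adjusted p under 0.05, 3 of the 10 were lower and 0 higher without DS library c, beside 3.03% and 1.19% of all transcripts, and 0 were called without WW library a, beside 0.0%. DS library c was left out after its likeness to WW libraries was seen, so the calls without it are a description.

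Between genotypes, in WW plants 1 of the 10 was above and 2 were below IS20351 in all libraries, with a background of 13.0% and 9.66%. In DS plants the counts were also 1 and 2, with a background of 9.05% and 10.6%. Without WW library a of IS22330, 4 were below IS20351 in WW plants, and without DS library c 5 were below in DS plants, each beside 14.9% of all transcripts. None passed an edgeR adjusted p under 0.05 in either comparison (background 2.84% higher and 1.89% lower in WW, 3.75% and 2.51% in DS). At an unadjusted p under 0.05, 1 was higher and 2 lower in WW plants, with a background of 8.13% and 6.34%, and 2 were higher and 3 lower in DS plants, with a background of 10.1% and 7.39%. With limma at a pseudocount of 0.1, 1 was lower at an adjusted p under 0.05 in WW plants (background 2.01%) and 1 in DS plants (background 2.8%). With DESeq2 1 was lower in WW plants (background 3.35%), and 2 were higher and 3 lower in DS plants (background 6.31% and 4.4%). In edgeR fits without both DS library c and WW library a of IS22330, 3 of the 10 were lower in WW plants at an adjusted p under 0.05 (background 2.27%) and 0 in DS plants (background 2.55%). Without WW library a alone, 1 was lower in WW plants (background 1.45%) and 1 in DS plants (background 2.42%), and without DS library c alone 1 was lower in WW plants (background 2.64%) and 0 in DS plants (background 2.49%).

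**Figure D3:**
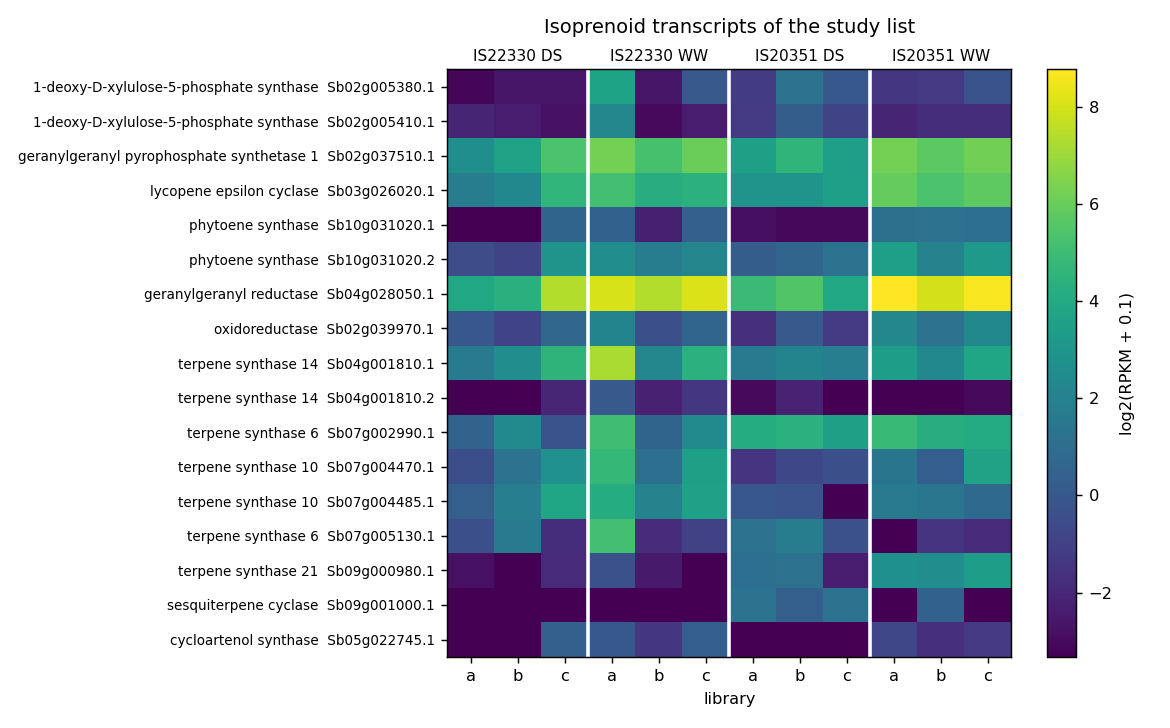
Log2(RPKM + 0.1) of the 3 members and the 14 other listed isoprenoid transcripts (rows, ordered by step) in 12 libraries (columns a, b and c of each group). Carotenoid and phytyl steps were darker in DS than in WW columns of the same genotype, except in DS library c of IS22330. Within their rows, 1-deoxy-D-xylulose-5-phosphate synthases and terpene synthases were brightest in library a of IS22330 WW, with the exception of terpene synthase 21 and the sesquiterpene cyclase.

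The steps next to the members fell into patterns resembling those of the members. Geranylgeranyl pyrophosphate synthetase 1 (Sb02g037510.1), which makes the shared precursor, had 6.41, 12.3 and 40.7 RPKM in DS, against 76.4, 38.5 and 65.4 RPKM in WW libraries of IS22330. In IS20351 it had 11.8, 24.3 and 11.2 RPKM in DS, against 76.0, 53.1 and 73.1 RPKM in WW libraries. As for the reductase, DS library c of IS22330 was in the range of the WW libraries and the IS20351 groups did not overlap. The edgeR log2 ratio in IS22330 was -1.46 (SE 0.62, adjusted p = 0.437), and that in IS20351 was -2.23 (SE 0.63, adjusted p = 0.0676). Without DS library c the transcript fell by 2.77 on the log2 scale in IS22330 (SE 0.42, adjusted p = 0.0135) and by 2.23 in IS20351 (SE 0.35, adjusted p = 0.0045). DS library c was left out after its likeness to WW libraries was seen. The adjusted p in IS22330 without it is therefore a description and no independent test, and the list itself was drawn up from these libraries. Over the 22 fits run, the adjusted p of the synthetase ran between 0.0135 and 0.829 in IS22330 and between 0.0045 and 0.199 in IS20351.

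Lycopene epsilon cyclase (Sb03g026020.1), which directs lycopene towards lutein, behaved likewise. It had 3.31, 4.89 and 24.8 RPKM in DS, against 35.3, 18.6 and 21.2 RPKM in WW libraries of IS22330. In IS20351 it had 7.44, 7.68 and 11.1 RPKM in DS, against 60.3, 40.8 and 55.2 RPKM in WW libraries. Again only DS library c of IS22330 reached the WW range. With all libraries the edgeR log2 ratio in IS22330 was -1.03 (SE 0.67, adjusted p = 0.564), and in IS20351 it was -2.66 (SE 0.71, adjusted p = 0.0592). Without DS library c it was -2.69 in IS22330 (SE 0.38, adjusted p = 0.0131) and -2.66 in IS20351 (SE 0.32, adjusted p = 0.0018). The adjusted p in IS22330 without DS library c is again a description, since the library was left out after its likeness to WW libraries was seen. Over the 22 fits the adjusted p of the cyclase ran between 0.0131 and 0.909 in IS22330 and between 0.0018 and 0.178 in IS20351.

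The second phytoene synthase transcript, Sb10g031020.2, was also lower in DS plants of both genotypes without DS library c of IS22330. As that library was left out after its likeness to WW libraries was seen, the IS22330 values are a description and no independent test. The log2 ratio in IS22330 was then -3.11 (SE 0.57, adjusted p = 0.0225), and in IS20351 it was -2.43 (SE 0.46, adjusted p = 0.0088). Over the 22 fits its adjusted p was at least 0.0225 in IS22330 and 0.0088 to 0.316 in IS20351.

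Counted over the list, DS libraries a and b of IS22330 were below all WW libraries of that genotype for 6 of the 14 transcripts, and in all 6 DS library c was not. Among all transcripts, tested or not, libraries a and b were below for 4406, and library c was not for 2332 of these, 15.7% and 8.33% of all. Among the transcripts tested these counts were 3776 and 2039, or 19.8% and 10.7%. The 6 were Sb10g031020.2, geranylgeranyl pyrophosphate synthetase 1, lycopene epsilon cyclase, cycloartenol synthase (Sb05g022745.1), terpene synthase 10 (Sb07g004485.1) and Sb04g001810.2, a second transcript of terpene synthase 14. Phytoene synthase Sb10g031020.1 and the reductase shared this pattern. Cycloartenol synthase, which opens the sterol branch in plants, had no read in DS libraries a and b and 63 reads in c, against 46, 15 and 59 reads in WW libraries of IS22330; in IS20351 it had no read in any DS library, against 26, 12 and 16 reads in WW libraries.

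The same contrast between DS libraries was present in photosynthesis transcripts. The summed RPKM of the 28 light reaction and Calvin cycle transcripts was 2272, 2453 and 13647 in IS22330 DS libraries, against 10096, 5963 and 10098 in WW libraries. In IS20351 the sum was 2500, 2458 and 3146 in DS, against 15383, 12366 and 14769.5 in WW libraries. The sum is carried by the most abundant of them. Library c of IS22330 DS was above libraries a and b for 20 of the 28, compared with 26.8% of all transcripts, and below both for 8. In IS20351 all DS libraries were above all WW libraries for 7 of the 27 tested and below them for 20. Those 7 were among the 8 for which library c of IS22330 DS was below libraries a and b. Among all transcripts tested, 21.5% were above and 15.2% below in IS20351. The study named the 28 transcripts as changed by drought in IS20351, from these same libraries. Their separation in IS20351 therefore follows from how they were chosen and is no independent evidence. Library b of IS22330 WW, where Sb10g031020.1 had 6 reads, had the lowest sum of the WW libraries of its genotype. The part of this difference between libraries in the members' values was not tested.

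**Figure D4:**
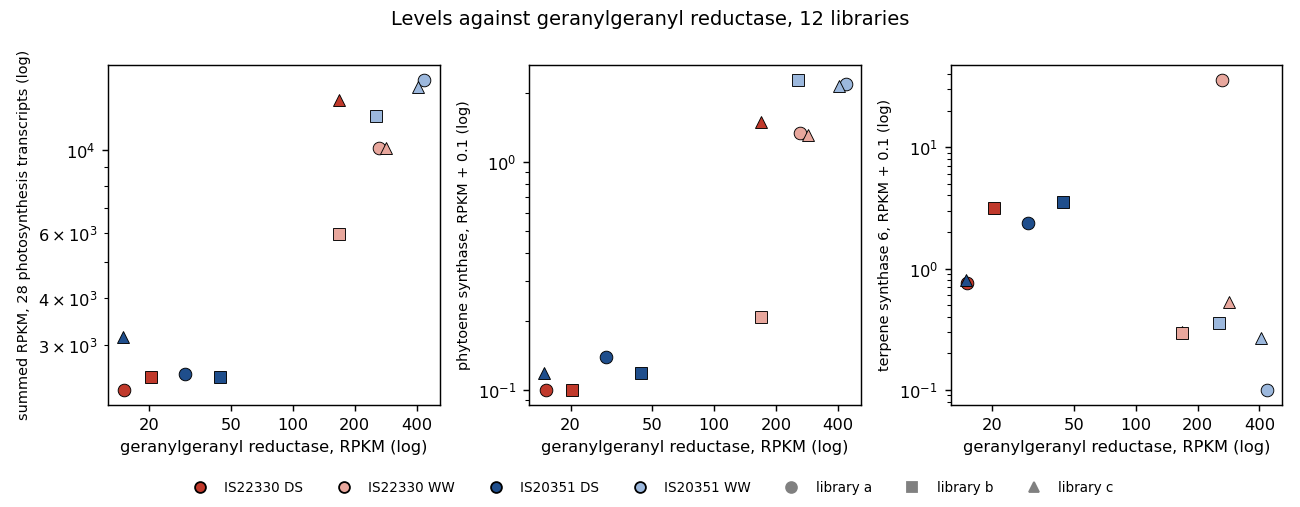
Summed RPKM of 28 photosynthesis transcripts, phytoene synthase and terpene synthase 6 (the last ones as RPKM + 0.1) against the RPKM of geranylgeranyl reductase on log axes; each point is 1 of 12 libraries. DS library c of IS22330 lies with the WW libraries in the left and middle panels, and in the right panel library a of IS22330 WW lies above the other libraries, and the points of DS library c and WW library b of IS22330 coincide.

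The 1-deoxy-D-xylulose-5-phosphate synthases, which open the plastid route to isoprenoid units, followed terpene synthase 6 in WW library a of IS22330. Sb02g005380.1 had 0.0166, 0.0664 and 0.0663 RPKM in DS, against 12.7, 0.0645 and 0.935 RPKM in WW libraries of IS22330. Sb02g005410.1 had 0.141, 0.0937 and 0.0468 RPKM in DS, against 4.52, 0.0228 and 0.0910 RPKM in WW libraries. Library a was thus 13.6-fold and 49.7-fold above the next WW library. In IS20351 both were between 0.317 and 2.16 RPKM in DS and between 0.140 and 0.747 RPKM in WW libraries. Neither passed the filter on low values, and no fitted ratio is given for them.

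Terpene synthases shared the height of WW library a in part. Terpene synthase 14 (Sb04g001810.1) had 3.12, 5.99 and 22.9 RPKM in DS, against 151, 4.60 and 21.01 RPKM in WW libraries of IS22330. A second transcript named terpene synthase 6, Sb07g002990.1, had 1.35, 5.51 and 0.744 RPKM in DS, against 32.9, 1.39 and 5.36 RPKM in WW libraries of IS22330. In IS20351 Sb07g002990.1 had 17.8, 21.2 and 11.5 RPKM in DS, against 28.1, 18.2 and 17.4 RPKM in WW libraries, so that it differed from Sb07g005130.1 in being well expressed in both treatments. Reads were counted by the authors only where their match was unique, and near-identical copies of terpene synthase genes could still lose or share reads, so the level of each copy is uncertain.

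WW library a of IS22330 was the highest of the 12 libraries for 8 of the 14 listed transcripts, compared with 10.6% of the transcripts tested and 10.7% of all transcripts. It was at least 10-fold above both other WW libraries, at 1 RPKM or more, for terpene synthase 6 and both 1-deoxy-D-xylulose-5-phosphate synthases, compared with 0.173% of the transcripts tested and 0.293% of all transcripts. The pattern was noticed in these values and is a description of 1 library. The reductase and both phytoene synthase transcripts were not highest there.

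The remaining terpene synthase transcripts varied among themselves. Terpene synthase 10 (Sb07g004470.1) had 0.658, 2.37 and 6.92 RPKM in DS, against 26.4, 2.05 and 11.7 RPKM in WW libraries of IS22330, and 0.269, 0.522 and 0.677 RPKM in DS, against 2.53, 1.11 and 12.4 RPKM in WW libraries of IS20351. Terpene synthase 21 (Sb09g000980.1) was low in IS22330 in both treatments. It had at most 0.176 RPKM in DS and 0.709 RPKM in WW libraries of IS22330, against 0.0878 to 2.23 RPKM in DS and 5.94 to 10.5 RPKM in WW libraries of IS20351. Its log2 ratio of IS22330 over IS20351 in WW plants was -4.91 (SE 1.32, edgeR adjusted p = 0.0635), and over the 22 fits this adjusted p ran between 0.0010 and 0.189, with 0.0316 without WW library a of IS22330. The sesquiterpene cyclase Sb09g001000.1 had no read in any of 6 IS22330 libraries, 43, 22 and 43 reads in IS20351 DS libraries, and 0, 24 and 0 reads in IS20351 WW libraries.

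The transcripts whose log2(RPKM + 0.1) followed each member most closely over the 12 libraries are given as a description, since libraries share treatment and genotype. For phytoene synthase Sb10g031020.1 they were Sb06g032740.1, Sb09g024120.1 and Sb01g037610.1 (Pearson r of 0.986, 0.986 and 0.978). Sb06g032740.1 had 34.1, 40.9 and 177 RPKM in DS, against 231, 64.6 and 285 RPKM in WW libraries of IS22330. It thus had both the high DS library c and the low WW library b of phytoene synthase. In IS20351 Sb06g032740.1 had 45.3, 35.8 and 47.9 RPKM in DS, against 282, 255 and 275 RPKM in WW libraries.

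For the reductase the closest were Sb10g008850.1, Sb04g036050.1 and Sb01g018230.1 (r of 0.978, 0.978 and 0.977). Geranylgeranyl pyrophosphate synthetase 1 was the fifth, with an r of 0.976, and Sb10g031020.1 had an r of 0.920 with the reductase. For terpene synthase 6 the closest were Sb02g030630.1, Sb01g007150.1 and Sb03g028230.1 (r of 0.929, 0.916 and 0.915). Terpene synthase 6 had an r of -0.34 with Sb10g031020.1 and -0.33 with the reductase. The nearest transcripts share its height in WW library a of IS22330, as for Sb03g028230.1, which had 1.47, 3.99 and 1.22 RPKM in DS, against 15.3, 0.871 and 1.90 RPKM in WW libraries.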

How the data were processed

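RNA of 12 leaf libraries was sequenced by the authors on the Illumina GAIIx. Per the study's methods, reads were cleaned, aligned with SOAPaligner/SOAP2, at up to 5 mismatches, to the sorghum genome of Ensembl Plants (release 20), and unique reads were counted per transcript; whether strand was used is not given in the sources used here. The deposited expected counts are means of the unique reads over the 3 libraries of a group. The deposited RPKM are means of the values per library, and the deposited transcript length is in bases. A library without reads had entered both means as 0.001.

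Reads of each library were solved as the whole numbers that give both means, with library totals read from transcripts with reads in 1 library. This succeeded for 27987 of 27989 transcripts. Means simulated from the solved reads, shuffled among libraries, gave back 27989 of 27989 in each group. Transcripts without a solution entered this simulation with small set counts, so it does not cover them. In both IS20351 groups the solved reads added up to the library totals exactly. Sb01g013000.1 and Sb10g021330.1 had no single solution in IS22330 groups and were left out. RPKM per library were computed from the solved reads.

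The edgeR quasi-likelihood test (edgeR 4.0.16, R 4.3.3) used all 12 libraries, TMM normalization, 1 mean per group and a prior count of 0.125. It covered the 19024 transcripts that reached 1 RPKM in 3 or more libraries. The common biological coefficient of variation was 0.464. SEs were obtained by dividing the absolute log2 ratio by the root of the F statistic, and p values were adjusted by the Benjamini-Hochberg method over all transcripts tested. The script was tested on simulated data. Exact Poisson and Clopper-Pearson intervals are at 95%. Alternatives used limma 3.58.1 on log2(RPKM + 0.1) or log2(RPKM + 1), DESeq2 1.42.0, other scalings, filters, prior counts, groups and libraries. Python 3.11.15, pandas 2.3.3 and scipy 1.17.1 were used for the solution and the tables.

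The members, lists and comparisons were chosen with earlier results of these data known. Named transcripts were the members, the other transcripts of their genes, the isoprenoid transcripts of the study's list by steps next to the members, and the 3 transcripts closest to each member. Gene names are those of the study. The labels call the libraries biological replicates, with no replicate number in the deposited columns. RefSeq product names could not be matched to the identifiers, so markers of cell types by product name were not used.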

Additional observations from a re-analysis of the deposited data

How the results depend on the processing

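The members' log2 ratios moved with the libraries used in IS22330, and those of phytoene synthase and terpene synthase 6 in IS20351 moved more with the method. Leaving out 1 library at a time, phytoene synthase Sb10g031020.1 ranged between -6.73 and -6.15 for DS over WW in IS20351, between -8.52 and -0.023 for DS over WW in IS22330, and between -3.55 and 4.92 for IS22330 over IS20351 in DS plants. The reductase ranged between -3.82 and -1.11 for DS over WW in IS22330 and between -0.74 and 1.94 for IS22330 over IS20351 in DS plants, and terpene synthase 6 between -4.70 and 1.99 for DS over WW in IS22330 and between 1.03 and 6.96 for IS22330 over IS20351 in WW plants. The extremes that turned a sign were without DS library c of IS22330 for phytoene synthase and the reductase, and without WW library a of IS22330 for terpene synthase 6. Without both of these libraries, an alternative chosen after seeing the data, DS over WW in IS22330 was -8.13, -3.72 and 2.47 for phytoene synthase, the reductase and terpene synthase 6, IS22330 over IS20351 in DS plants was -3.55 for phytoene synthase and -0.74 for the reductase, and in WW plants it was 1.03 for terpene synthase 6. Fitted ratios of phytoene synthase against IS22330 DS libraries without reads depend on the prior count and are no bounds.

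For phytoene synthase in IS20351, DS over WW was -5.54 with 10 times the prior count, -4.14 and -1.60 with limma at pseudocounts of 0.1 and 1, -6.49 with DESeq2, and -2.72 with the reads of both transcripts summed. For IS22330 over IS20351 in DS plants it was 0.98 and 0.38 with limma at these pseudocounts and 1.25 with summed reads. Terpene synthase 6 was at 1.36 for DS over WW in IS20351 with limma at a pseudocount of 1, and at 3.06 and 1.80 for IS22330 over IS20351 in WW plants with limma at pseudocounts of 0.1 and 1. A pseudocount shrinks ratios of low levels by construction.

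Among the 10 other isoprenoid transcripts tested, 0 were called at an adjusted p under 0.05 in either direction for DS over WW in IS20351 (3.72% of all). The count was 2 and 4 with limma at pseudocounts of 0.1 and 1 (4.74 and 5.25% of all transcripts tested). It was 5 with DESeq2 (16.3%), 5 with the compared groups alone (11.2%) and 5 without both libraries (16.2%). Leaving out 1 library it was 0 to 4, where 0.0 to 15.4% of all transcripts were called. The fit that gave the 4 was also that with 15.4%. For DS over WW in IS22330 it was 0 (0.0%), with 2 without both libraries (0.641%) and 0 to 3 leaving out 1 (0.0 to 4.22%). Between genotypes it was 0 in WW plants (4.73%), with 1 by limma at either pseudocount (5.20 and 4.82%) and 1 by DESeq2 (7.95%). It was 1 with the compared groups alone (4.76%), 3 without both libraries (5.27%) and 0 to 1 leaving out 1 (3.08 to 6.04%). In DS plants it was 0 (6.26%), with 1 by limma at either pseudocount (6.41 and 6.13%) and 5 by DESeq2 (10.7%). It was 1 with the compared groups alone (3.36%) and 0 to 1 leaving out 1 (3.71 to 6.17%). The difference of the drought responses gave 0 calls among them in all fits run. Its share over all transcripts tested was 0.0% in the main edgeR fit, 0.242% by DESeq2 and 0.0053% without both libraries. So few transcripts were called at all that these 0 calls do not show alike responses of the list in both genotypes. Except as stated, causes of these changes were not tested. Of 381 values recomputed, 332 kept their direction and call or moved by less than the spread between replicates, 20 moved by more, 6 changed sign and 23 counts of calls were higher. No paired analysis was possible because the deposited columns carry no replicate numbers. Depth limits phytoene synthase Sb10g031020.1 in DS plants and terpene synthase 6 in WW plants of IS20351, where 3 reads are the least that can be told from 0.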
